A study of Mus musculus with 2 samples.

Results

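Chemokines are small secreted or membrane-bound proteins that direct the movement of cells, and their receptors sit in the cell membrane. The protein-coding genes whose symbols begin with Ccl, Cxcl, Cx3cl, Xcl, Ccr, Ccrl, Cxcr, Cx3cr, Xcr or Ackr and a number were taken from the mouse annotation. This gave 61 genes of 21474 protein-coding genes, 37 of them ligands and 24 of them receptors. They were read in total RNA longer than 200 nt from whole urinary bladders of the inbred mouse strain B6NCrl on postnatal day 0. The animals were 2 pups of 1 pregnant female, with no treatment, no introduced allele and no sex recorded, and each pup gave 1 library from 10 ng of RNA. Both samples form 1 group, so the measurements are the levels of these genes and the difference between littermates, and no test across animals can be made.

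Most chemokine receptors signal through inhibitory G proteins, and a cell that carries one moves up the gradient of its ligand. Ligands are named by the spacing of their first cysteines (CC, CXC, CX3C and XC). Some, such as Cxcl12, are made constantly by stromal cells and hold progenitors and leukocytes in place, whereas others are induced in inflammation, where CC ligands mainly draw monocytes and CXC ligands with a Glu-Leu-Arg (ELR) motif draw neutrophils. Atypical receptors bind chemokines without classical signalling and remove or present them.

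Depth was 43653931 expected counts (estimated reads) in pup 1 and 32564563 in pup 2. Levels are in TPM (transcript abundance corrected for length and depth), and a gene was called detected at 1 TPM or more in both pups. The tissue label was checked against marker lists. All 5 smooth muscle, all 6 urothelial, all 6 fibroblast and all 4 mesothelial markers were detected, and their summed levels differed little between the pups (52185 and 47344 TPM for smooth muscle). Summed blood and myeloid markers were higher in pup 2: the 5 erythroid markers summed to 21719 TPM in pup 1 and 59101 in pup 2, the 7 neutrophil markers to 36.9 and 398 TPM, and the 11 macrophage and monocyte markers to 569 and 1840 TPM. The lysozyme gene Lyz2 held much of the last sum, and the other 10 markers summed to 353 and 734 TPM. Not every macrophage marker was higher: Mrc1 was at 16.9 and 13.1 TPM and Cd163 at 3.78 and 3.72 TPM. In whole tissue, fewer cells of a type and less RNA per cell cannot be told apart.

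Cxcl1, Cxcl2 and Cxcl3, which lie in 1 run of genes on chromosome 5, were all more than 2-fold higher in pup 2. The 150 bases before the start of each are shown from RefSeq (build GRCm38.p6, 5′ to 3′ on the gene's strand), followed for contrast by Ccl6 and Ccl9, which had the highest ratios among the abundant ligands, and by Cxcl12, whose level was nearly the same in both pups. Capitals mark the NF-kB motif GGAATTTCC and the TATA motif TATAAA, each in either orientation.
Cxcl1 (chr5:90891095-90891244, plus strand): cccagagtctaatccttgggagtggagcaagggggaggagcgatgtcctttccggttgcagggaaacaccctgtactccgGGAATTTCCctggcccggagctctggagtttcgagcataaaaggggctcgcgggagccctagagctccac
Cxcl2 (chr5:90903749-90903898, plus strand): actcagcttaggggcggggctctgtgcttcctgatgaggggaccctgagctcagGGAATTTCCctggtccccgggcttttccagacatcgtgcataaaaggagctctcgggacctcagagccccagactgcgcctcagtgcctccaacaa
Cxcl3 (chr5:90785951-90786100, plus strand): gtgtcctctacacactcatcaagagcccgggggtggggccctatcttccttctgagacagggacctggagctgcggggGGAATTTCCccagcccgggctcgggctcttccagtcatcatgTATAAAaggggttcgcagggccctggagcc
Ccl6 (chr11:83593088-83593237, minus strand): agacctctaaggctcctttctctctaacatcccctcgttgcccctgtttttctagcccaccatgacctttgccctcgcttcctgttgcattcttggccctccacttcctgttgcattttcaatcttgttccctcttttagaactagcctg
Ccl9 (chr11:83578637-83578786, minus strand): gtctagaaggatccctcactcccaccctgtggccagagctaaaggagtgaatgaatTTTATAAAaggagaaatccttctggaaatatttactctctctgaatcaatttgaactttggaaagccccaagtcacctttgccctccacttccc
Cxcl12 (chr6:117168385-117168534, plus strand): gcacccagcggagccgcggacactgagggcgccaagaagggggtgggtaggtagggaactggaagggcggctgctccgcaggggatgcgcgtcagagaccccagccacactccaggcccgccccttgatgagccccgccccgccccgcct
The same unbroken NF-kB match lay in each of the 3 CXC promoters, with its first base 70 bases before the start of Cxcl1, 96 before that of Cxcl2 and 72 before that of Cxcl3. Cxcl3 also held a TATA match 30 bases before its start. Ccl9 held overlapping TATA matches in both orientations 94 and 92 bases before its start, and the stretches of Ccl6 and Cxcl12 held neither motif.

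RefSeq promoters of 300 bases (250 before to 50 after the start) were matched for 47 of the 61 genes, 56 promoters in all. Genes without a match were not searched, among them Ccl2, Ccl7, Ccl24 and Cxcl5, all at least 2-fold higher in pup 2. The NF-kB motif (GGAATTTCC, or GGAAATTCC on the other strand) was present in 5 of the 56 (8.93%), against 0.317% of all 32851 promoters of this length. Its carriers were Cxcl1, Cxcl2, Cxcl3, Cxcl10 and Ccr3, and the last 2 had it further upstream than the bases shown. Cxcl10 was lower in pup 2, with 15 counts in pup 1 and 3 in pup 2. Ccr3 had 12 and 10 counts, and its log2 ratio of pup 2 over pup 1 after scaling for depth was 0.14 (-1.23 to 1.48), which could not be told from 0. The promoters of Cxcr2 (4 and 143 counts) and Cxcl15 (5 and 21 counts) held no NF-kB match. The genes whose bases are shown were picked by their ratios, and a link between motif and ratio was not tested. The motif TATAAA was found in 26.8% against 13.6%, and the AP-1 motif TGANTCA in 17.9% against 7.81%. The C/EBP motif TTGCNNAA was in 12.5% against 10.8%, and the PU.1 motif GAGGAAGT in 1.79% against 3.20%. Every motif was searched on both strands. A match describes the letters of the window and is not a measured site, and several promoters can belong to 1 gene. Cxcl1, Cxcl2 and Cxcl3 lie in 1 run of genes, so their NF-kB matches may not be independent of each other.

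Of the 61 genes, 22 were detected, 16 of 37 ligands and 6 of 24 receptors. The same limit was reached by 58.5% of all protein-coding genes. Ligands summed to 345 TPM in pup 1 and 824 TPM in pup 2, and receptors to 37.4 and 68.6 TPM, so the ligand transcripts outweighed those of the receptors in both bladders. The 3 ligands Ccl6, Cxcl12 and Cxcl14 held 57.5% of ligand TPM in pup 1 and 66.1% in pup 2. At the other end, 31 genes stayed below 1 TPM in both pups, and 21 had at most 10 counts in each. Ccl1, Ccl26, Ccl27b, Xcl1, Ccr6 and Cxcr1 had 0 counts in both, which allows up to 0.548 TPM in pup 1 and 0.685 TPM in pup 2 for Ccl26, the shortest of them, and less for the others. These limits, like the intervals given later, hold only the error of counting, as PCR copies of a molecule were not separated.

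**Figure D1:**
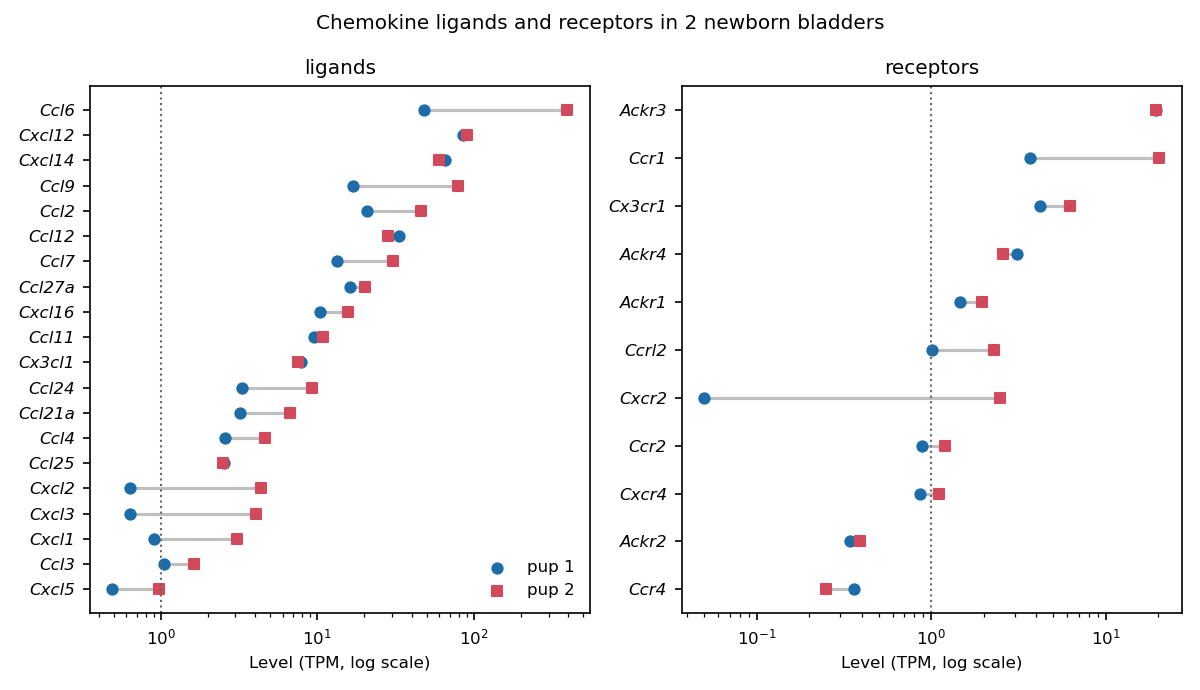
Level in TPM (log axis) of ligands (left) and receptors (right) averaging 20 or more counts, with a circle for pup 1, a square for pup 2 and a line joining them; the dotted line is 1 TPM. Cxcl12, Cxcl14 and Ackr3 have nearly coinciding points, whereas Ccl6, Ccl9, Ccr1 and Cxcr2 are far apart.

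The homeostatic ligands, which act in tissue upkeep and lymphoid traffic, differed little between the pups as a group. Their 10 genes summed to 173 TPM in pup 1 and 180 TPM in pup 2, and 5 were detected. Cxcl12 (chromosome 6, 117168535 to 117181367, plus strand, mm10), the ligand of Cxcr4 and Ackr3, was at 85.6 TPM in pup 1 and 89.8 TPM in pup 2 (mean 87.7 ± 2.98, SD, n = 2). Cxcl14, a CXC ligand of epithelia and stroma, was at 65.0 and 60.0 TPM (62.5 ± 3.54, SD, n = 2). These were the most abundant homeostatic transcripts, and neither pup stood out. Ccl27a, a CC ligand known from skin that binds Ccr10, was at 16.1 and 20.2 TPM. Ccl25, a ligand of Ccr9, was at 2.54 and 2.51 TPM. Only Ccl21a, a lymphatic endothelial ligand of Ccr7, differed by more than 2-fold in this group, with 3.19 TPM in pup 1 and 6.69 TPM in pup 2. The remaining 5 (Cxcl13, Ccl19, Ccl21b, Ccl27b and Ccl28) were between 0 and 0.53 TPM.

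The inflammatory CC ligands Ccl3, Ccl4, Ccl5, Ccl6 and Ccl9 were the most uneven of the abundant groups. The 5 genes summed to 69.1 TPM in pup 1 and 481 TPM in pup 2. Ccl6 (chromosome 11, 83587882 to 83593087, minus strand), a rodent CC ligand made by myeloid cells, was at 47.8 TPM in pup 1 and 395 TPM in pup 2 from 1473 and 9775 counts. Its place among all protein-coding genes by TPM was 2694 in pup 1 and 324 in pup 2, and its share of ligand TPM was 13.8% and 47.9%. Without it the ligands summed to 297 and 429 TPM. Its neighbour Ccl9, another rodent Ccr1 ligand, was at 16.9 TPM in pup 1 and 79.7 TPM in pup 2. Ccl4 was at 2.56 and 4.62 TPM and Ccl3 at 1.05 and 1.63 TPM; both are macrophage inflammatory proteins. Ccl5, a T cell and monocyte attractant, was at 0.77 and 0.39 TPM from 10 and 4 counts, the one gene of the group that was not higher in pup 2.

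Among the 4 monocyte-attracting ligands, of which Ccl2, Ccl7 and Ccl12 mainly bind Ccr2, the pups parted for some genes and not for others. Ccl2 was at 20.7 TPM in pup 1 and 46.2 TPM in pup 2. Ccl7 was at 13.3 and 30.4 TPM. Ccl12, which lies between 82101845 and 82103400 on chromosome 11 in the same cluster, was at 33.1 and 28.2 TPM. Ccl12 was thus the highest of the group in pup 1 and stood below Ccl2 and Ccl7 in pup 2. Ccl8, a related ligand, had 9 and 14 counts (0.73 and 1.42 TPM).

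The eosinophil attractants Ccl11 and Ccl24 were the only detected genes among the 7 other CC ligands. Ccl11 was at 9.58 and 10.9 TPM and Ccl24 at 3.28 and 9.21 TPM. Both bind Ccr3, which had 12 and 10 counts (0.13 TPM in each pup). The 5 eosinophil markers summed to 0.93 TPM in pup 1 and 1.07 TPM in pup 2, so neither the receptor nor the markers of its best known carrier reached 1 TPM singly. The other 5 ligands of this group had at most 8 counts. Among the ligands anchored in the membrane, Cx3cl1 (fractalkine) was at 7.87 and 7.47 TPM and Cxcl16 at 10.4 and 15.6 TPM.

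The ELR ligands, which attract neutrophils through Cxcr2, were all below 1 TPM in pup 1, and 3 of the 5 were above it in pup 2. Cxcl2 was at 0.64 TPM in pup 1 and 4.35 TPM in pup 2, from 18 and 99 counts. Cxcl3 was at 0.64 and 4.07 TPM, from 18 and 89 counts. Cxcl1 was at 0.90 and 3.08 TPM, from 23 and 63 counts. Cxcl5, a ligand known from epithelia, was at 0.49 and 0.97 TPM, and Cxcl15, best known from lung, had 5 and 21 counts. Every one of the 5 was higher in pup 2, and none was detected by the limit set for both pups. Of the 2 interferon-inducible ligands, Cxcl10 had 15 counts in pup 1 and 3 in pup 2. Cxcl9 had 3 and 0, and a count of 0 allows up to 3, so no difference is shown for it. Their transcripts summed to 0.54 and 0.13 TPM. Cxcl17, a symbol in the ligand pattern whose role is uncertain, had 0 and 2 counts.

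Among the CC receptors, Ccr1 alone was detected in both pups. Ccr1 (chromosome 9, 123962124 to 123968692, minus strand), carried by monocytes, macrophages and neutrophils, was at 3.67 TPM in pup 1 and 20.3 TPM in pup 2. Ccr2, the receptor of inflammatory monocytes, was at 0.88 and 1.19 TPM. Ccr1 thus separated the pups more widely than Ccr2. Ccr4, a receptor of T cell subsets, was at 0.36 and 0.25 TPM, and 7 CC receptors had at most 15 counts.

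Among the 6 CXC receptors none was detected in both pups. Cxcr2 (chromosome 1, 74153989 to 74161246, plus strand), the neutrophil receptor for ELR ligands, had 4 counts in pup 1 and 143 in pup 2 (0.05 and 2.46 TPM). Cxcr4, the signalling receptor of Cxcl12, was at 0.86 and 1.10 TPM from 44 and 45 counts. Cxcr3, Cxcr5 and Cxcr6 of lymphocytes had 4 to 15 counts. Cx3cr1, the macrophage and microglial receptor of Cx3cl1, was at 4.19 TPM in pup 1 and 6.26 TPM in pup 2, and Xcr1 of dendritic cells had 2 counts and 1 count.

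Of the 5 atypical receptors, 4 were detected. Ackr3, which takes up and degrades Cxcl12, was at 19.5 and 19.3 TPM (19.4 ± 0.141, SD, n = 2) and held 52.1% of receptor TPM in pup 1 and 28.1% in pup 2. Its level was 22.7 times that of Cxcr4 in pup 1 and 17.5 times in pup 2. Ccr1 passed Ackr3 in pup 2, with 29.5% of receptor TPM against 9.81% in pup 1. Ackr4, a scavenger of Ccl21 and Ccl25, was at 3.08 and 2.57 TPM. Ackr1, the Duffy antigen of venular endothelium and red cells, was at 1.46 and 1.96 TPM. Ccrl2, which binds chemerin, was at 1.01 and 2.29 TPM, and Ackr2, a scavenger of inflammatory CC ligands, was at 0.34 and 0.39 TPM.

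Set beside known receptors, most detected ligands were above them. Cxcl12 was at 99.5 times the level of Cxcr4 in pup 1 and 81.6 times in pup 2. Cxcr6 was at 0.09 and 0.14 TPM beside Cxcl16, and Ccr10 at 0.12 and 0.21 TPM beside Ccl27a. Ccr7 was at 0.05 and 0.07 TPM beside Ccl21a. In contrast, Cx3cl1 and Cx3cr1 lay close together, and Ccl3 was below Ccr1 in both pups. Ccl25 was below Ackr4 in both pups, and Ccl21a was near Ackr4 in pup 1 and above it in pup 2. These are levels in whole tissue per transcript length, and they give neither protein nor the cells that hold each partner.

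**Figure D2:**
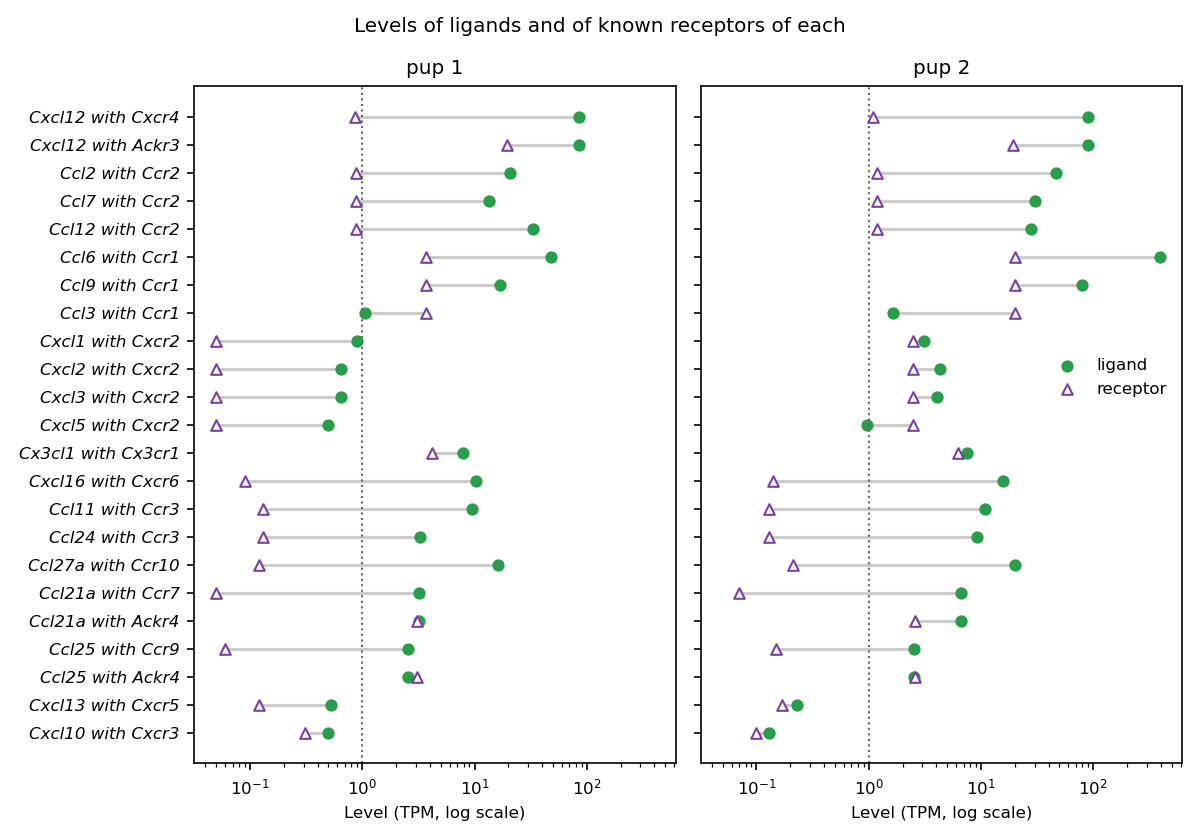
Levels in TPM (log axis) of ligand and receptor pairs in pup 1 (left) and pup 2 (right), with filled circles for ligands, open triangles for receptors and a dotted line at 1 TPM; a gene appears once for each partner. Receptors of Cxcl16, Ccl11, Ccl24 and Ccl27a lie below 1 TPM in both pups, and Cxcr2 lies near 0.05 TPM in pup 1 and above its 1 TPM line in pup 2.

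Between the pups, the family was shifted towards pup 2. Ratios are of counts after TMM scaling, a scaling that assumes most genes do not differ, with 95% exact binomial (Clopper-Pearson) intervals. Of 17 members averaging 100 or more counts, 7 were at least 2-fold higher in pup 2, among them Ccl2, Ccl6, Ccl7, Ccl9, Ccl24 and Ccr1. That is 41.2%, against 1.71% of the 12162 protein-coding genes at that minimum. None was 2-fold lower, against 0.23% of those genes. At an average of 20 or more counts, 14 of 32 members were 2-fold higher (43.8%, against 2.80% of 13976 genes) and 0 were 2-fold lower (against 0.701%). The added 7 were Ccl21a, Cxcl1, Cxcl2, Cxcl3, Cxcl5, Ccrl2 and Cxcr2. The median log2 ratio over the 32 was 0.68, and over all protein-coding genes at that minimum it was -0.02. The ratio was above 0 in 27 of the 32, with the whole interval above 0 in 21, and none of the 32 had its whole interval below 0. Among members with fewer counts, Cxcl10 had its whole interval below 0, at -1.92 (-4.35 to -0.10). Cxcl15 at 2.47 (1.03 to 4.24) and Ccr8 at 1.86 (0.11 to 3.97) had theirs above 0. With 1 library per pup, these differences have no replicate check.

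**Figure D3:**
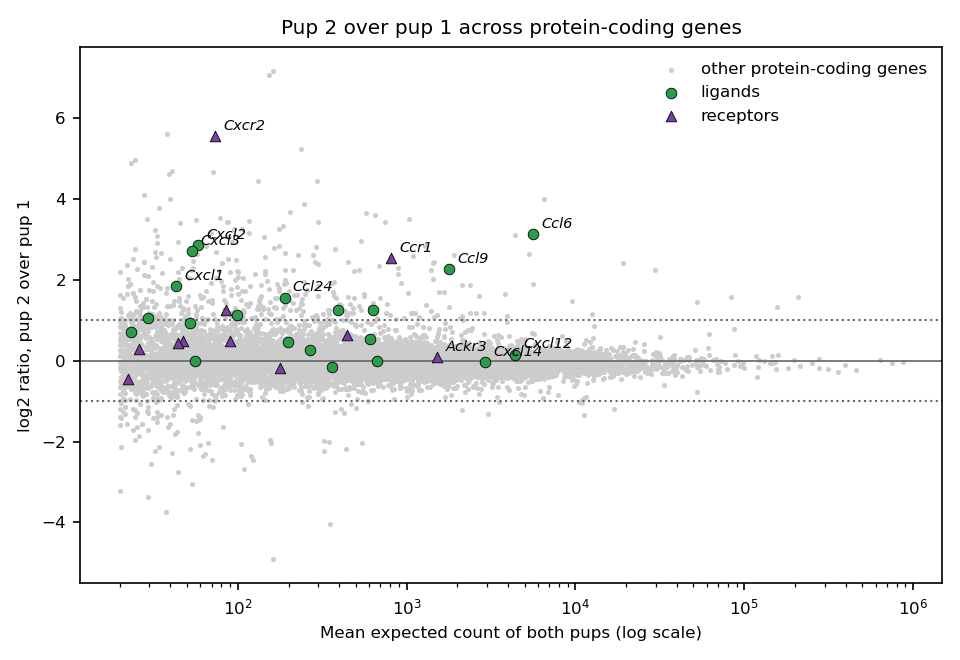
log2 ratio of pup 2 over pup 1 (vertical axis) against the mean expected count (log axis) for protein-coding genes averaging 20 or more counts: grey points for other genes, green circles for ligands, purple triangles for receptors, dotted lines at 2-fold. The members plotted lie mostly above 0, and none lies below the lower dotted line.

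The largest ratios belonged to receptors of myeloid cells and to their ligands. Cxcr2 had a log2 ratio of 5.56 (4.18 to 7.46), or 47.3-fold, with an interval made wide by the 4 counts of pup 1. Ccl6 had 3.13 (3.06 to 3.21), or 8.78-fold. Among the 12162 genes averaging 100 or more counts, Ccl6 was placed 20 by this ratio. Ccr1 followed with 2.54 (2.36 to 2.73) and Ccl9 with 2.27 (2.15 to 2.38). The ELR ligands Cxcl2 at 2.86 (2.13 to 3.68), Cxcl3 at 2.71 (1.97 to 3.53) and Cxcl1 at 1.86 (1.15 to 2.61) had intervals that overlapped each other. Smaller ratios above 2-fold were those of Ccl24 at 1.57 (1.25 to 1.89), Ccl7 at 1.27 (1.06 to 1.48), Ccrl2 at 1.25 (0.79 to 1.73), Ccl2 at 1.25 (1.08 to 1.42), Ccl21a at 1.14 (0.71 to 1.57) and Cxcl5 at 1.05 (0.26 to 1.87). For Ccrl2, Ccl21a and Cxcl5 the interval reached below 2-fold.

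Other members lay close to even. Cxcl12 had a log2 ratio of 0.15 (0.09 to 0.21), Cxcl14 of -0.04 (-0.11 to 0.04), Cx3cl1 of 0.005 (-0.15 to 0.16) and Ackr3 of 0.08 (-0.02 to 0.19). Ccl12 had -0.15 (-0.37 to 0.07) and Ackr4 had -0.17 (-0.49 to 0.14), and both intervals held 0. Between these and the 2-fold line lay Ccl4 at 0.93 (0.35 to 1.53), Cx3cr1 at 0.65 (0.45 to 0.84), Cxcl16 at 0.53 (0.37 to 0.70), Ccr2 at 0.48 (0.05 to 0.92) and Ccl27a at 0.47 (0.18 to 0.76). Ccl11 had 0.26 (0.01 to 0.51). The ratios of Cxcr4 at 0.44 (-0.20 to 1.07), Ackr1 at 0.50 (-0.12 to 1.11) and Ccl3 at 0.71 (-0.17 to 1.61) could not be told from 0 at this depth.

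**Figure D4:**
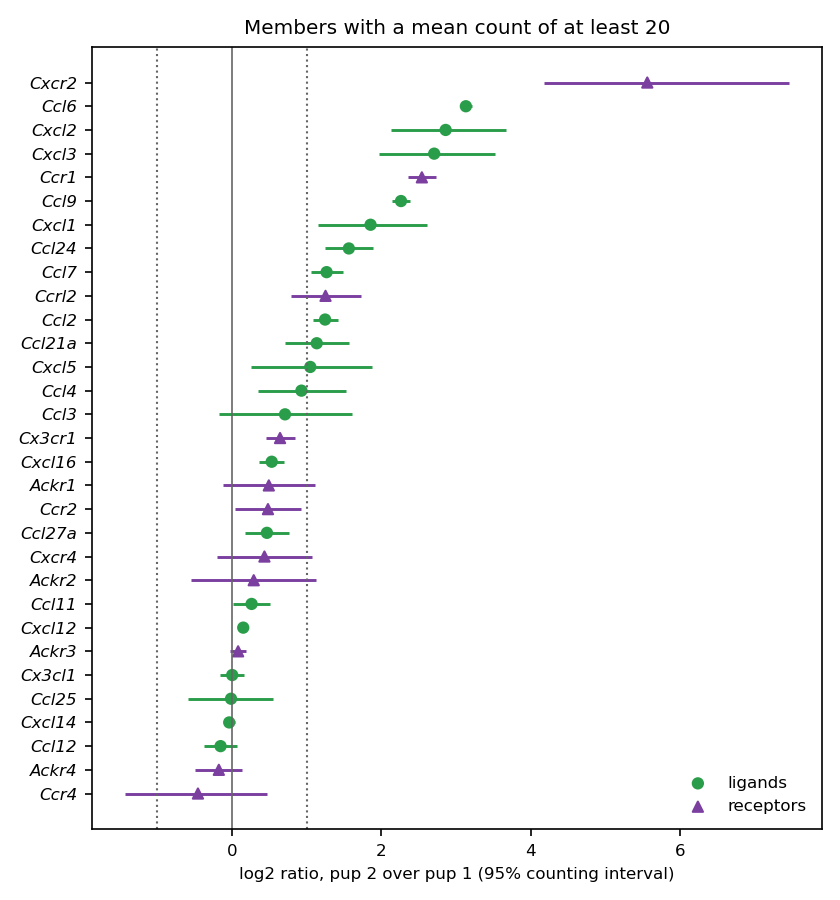
log2 ratio of pup 2 over pup 1 with its 95% counting interval for members averaging 20 or more counts, with circles for ligands, triangles for receptors and dotted lines at 2-fold. Cxcr2, Ccl6 and Cxcl2 lead, and Cxcl14, Ccl25 and Cx3cl1 lie at about 0.

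By role, the median log2 ratio over members averaging 20 or more counts was 2.28 for the 4 such ELR ligands, all 4 of them 2-fold higher. It was 1.60 for Ccl3, Ccl4, Ccl6 and Ccl9, 1.25 for 3 monocyte-attracting ligands, 0.29 for the 5 atypical receptors and 0.15 for 5 homeostatic ligands. Some marker lists of blood and myeloid cells moved with these groups: the neutrophil median was 3.50 over 5 genes, that of macrophages and monocytes 1.09 over 11 and that of erythroid cells 1.57 over 5. The neutrophil marker Ly6g had 0 counts in both pups. The inflammatory monocyte list had a median of 0.19 over 4 genes, with summed levels of 465 and 536 TPM. The mast cell list had 0.40 over 5, with 98.6 and 223 TPM, and the platelet and megakaryocyte list 0.48 over 5, with 317 and 428 TPM. The part of these cell types in the chemokine ratios was not tested.

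Lists of resident cells stayed near even, at 0.11 for blood endothelium, 0.05 for urothelium, -0.13 for fibroblasts and -0.17 for smooth muscle. Lymphatic endothelial markers, a list that includes Ccl21a itself, summed to 182 and 156 TPM. Pdpn held most of this, at 156 and 133 TPM. By log2 ratio, Lyve1 was at -0.45 (-0.57 to -0.33), Flt4 at 0.15 (-0.20 to 0.49) and Prox1 at 0.49 (-0.23 to 1.21), so the list did not move as one. Lymphocyte markers were low: the 9 T and NK cell genes summed to 8.24 TPM in pup 1 and 5.85 TPM in pup 2, with Cd3g and Cd8a at 0, and the 5 B cell genes to 1.64 and 1.65 TPM, with Pax5 at 0. Dendritic cell markers, which include Ccr7 and Xcr1, summed to 3.45 and 3.03 TPM, with Cd209a at 0.

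**Figure D5:**
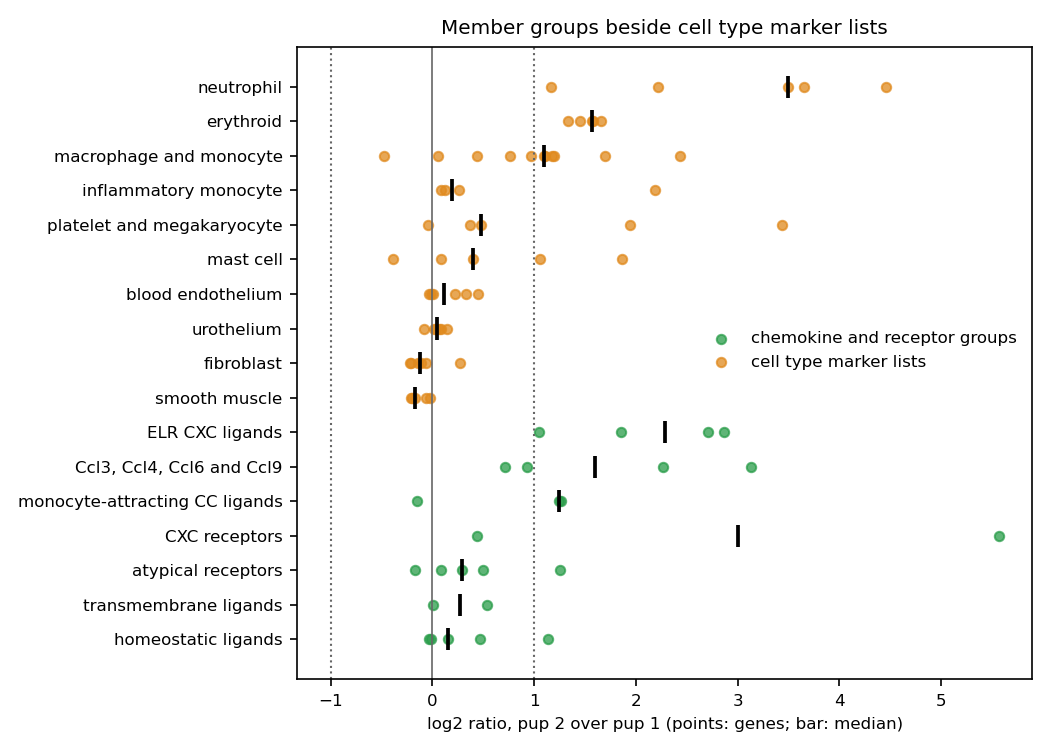
log2 ratio of pup 2 over pup 1 for single genes (points) averaging 20 or more counts and their median (bar), for cell type marker lists (orange) and chemokine and receptor groups (green); dotted lines mark 2-fold. The ELR ligands and the row of Ccl3, Ccl4, Ccl6 and Ccl9 lie on the side of pup 2 with the neutrophil, erythroid and macrophage lists, and the homeostatic ligands lie near the resident cell lists.

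Neighbouring genes did not always share their ratio. A run of 6 members lay between 82035571 and 82305690 on chromosome 11, where Ccl2 and Ccl7 were 2-fold higher in pup 2 and Ccl11 and Ccl12 were not. A second run of 5 members on the same chromosome, from 83525778 to 83664683, held Ccl6 and Ccl9 beside Ccl3 and Ccl4. In a run of receptors on chromosome 9, Ccr1 was 2-fold higher in pup 2 and Ccr2 was not. In the run of 5 ELR ligands on chromosome 5, from 90759360 to 90905938, all 4 genes at that minimum were 2-fold higher. In these runs, members had starts less than 250 kb from the next.

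Reads of near-identical genes were divided by the authors' estimator. Its posterior SD was 2.71% of the count for Cxcl2 and 2.85% for Cxcl3 in pup 1. For Ccl21a it was 7.74% in pup 1 and 5.05% in pup 2, and for its near copy Ccl21b, with 0 and 2 counts, it exceeded the count, so the values of Ccl21a and Ccl21b are uncertain. Exons of 10 members overlapped those of another gene, for example Ccl27a with Il11ra1, Cxcl16 with Zmynd15, Ackr4 with Acad11 and Ccl25 with Elavl1 on the opposite strand, and Ackr1 with Cadm3 on the same strand. The strand setting is not given in the sources used here, so reads of these pairs may not be separated.

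The transcripts behind the abundant members were mostly alike in the pups. Cxcl12-202 held 94.0% of the gene's TPM in pup 1 and 93.6% in pup 2, Cxcl14-201 held 100% in both, Ackr3-201 held 97.2% and 98.6%, Ccl7-201 held 100%, Ccl12-201 held 95.5% and 96.2%, and Ccl2-201 held 95.6% and 93.1%. The retained-intron transcript Ccl6-202 took 46.5% and 45.7% of Ccl6, beside 53.3% and 54.1% for the coding Ccl6-201, so both were higher in pup 2 in nearly the same proportion. For Ccl9, the short noncoding Ccl9-202 of 398 bases took 53.1% and 55.2% of TPM, but the coding Ccl9-201 of 3006 bases held 690 and 2484 counts against 80.3 and 314. Cxcl16 and Ccl27a differed more. In Cxcl16, the coding Cxcl16-201 held 47.4% in pup 1 and 35.9% in pup 2 and the nonsense-mediated decay transcript Cxcl16-202 held 44.8% and 57.1%. Ccl27a had 20 listed transcripts, some of them without counts in either pup. It was led by Ccl27a-202 with 37.1% and 31.5% and Ccl27a-206 with 21.4% and 27.1%, with Ccl27a-209, which retains an intron, at 12.2% and 12.1%. Among its smaller transcripts, picked here after their values were seen, Ccl27a-212 held 10.5% in pup 1 and 4.59% in pup 2, and Ccl27a-211 held 2.32% and 9.88%, from 5.13 to 23.0 counts each. No error is attached to these shares.

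Genes that serve the family outside the symbol pattern were also read. The platelet chemokine Pf4 (Cxcl4) was at 299 TPM in pup 1 and 396 TPM in pup 2, and Ppbp (Cxcl7) at 8.62 and 7.93 TPM. The platelet markers Itga2b (3.60 and 8.33 TPM), Gp9 (0.89 and 9.10 TPM) and Gp1bb (4.86 and 7.15 TPM) lay far below Pf4. By log2 ratio, Gp9 was at 3.43 (2.74 to 4.20) and Itga2b at 1.94 (1.64 to 2.24). Pf4 was at 0.48, Gp1bb at 0.37 and Ppbp at -0.04. Which cells held Pf4 was not tested. Of 25 genes of chemokine receptor signalling, 23 were detected, and Gnai2, Gnb1 and Rac1 were the highest, with Gnai2, an inhibitory G protein subunit, at 266 and 248 TPM. Of the 24 averaging 100 or more counts, 5 were 2-fold higher in pup 2 (20.8%, against 1.71% of all protein-coding genes at that minimum), all known from leukocytes: Dock2 at a log2 ratio of 1.92, Rgs1 at 1.77, Rac2 at 1.64, Vav1 at 1.63 and Pik3r5 at 1.35. None was 2-fold lower, and the median over the 25 was 0.17.

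Of 11 proteases and binding partners that cleave or hold chemokines, 7 were detected, led by Hmgb1, Mmp2 and Adam10, and 1 was 2-fold higher, the gelatinase Mmp9, at 4.84 and 8.97 TPM with a log2 ratio of 1.00 (0.80 to 1.2). Of 14 genes of NF-kB feedback and inflammation, 8 were detected, and none averaging 100 or more counts was 2-fold higher or lower. At 20 or more counts, Il1b was 2-fold higher at 2.13 (1.21 to 3.15), and Il6, just under that minimum with 5 and 34 counts, was at 3.17 (1.81 to 4.88). Both are inflammatory cytokines, picked once their values had been seen. The highest were Nfkbia, the NF-kB inhibitor, at 49.0 and 54.2 TPM, Vcam1 at 38.4 and 34.6 TPM and Relb at 16.7 TPM in both pups. The median of this list was 0.25. Of 8 interferon gamma response genes, 6 were detected and Irf8, a regulator of myeloid cells, was 2-fold higher at 1.03 (0.89 to 1.18). Cd274 (PD-L1), chosen after its values were seen, had 12 and 54 counts and a larger ratio of 2.57 (1.65 to 3.61), whereas Gbp2 had -0.36 (-0.49 to -0.23).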

How the data were processed

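Total RNA-seq libraries of 2 newborn bladders, 1 per pup, were analysed as 1 group. Per the labels, gene and transcript values were made on assembly mm10, and the text listing supplied with each sample names GENCODE release M4. No source used here gives the aligner, the version of the estimator or its use of strand. The authors deposited expected counts (estimated counts, with shared reads divided among targets), the posterior SD of each count, TPM and FPKM, and for transcripts the percent of the gene's abundance. TPM sums include spike-ins, and FPKM was used only as an alternative. Symbols, gene types and coordinates came from GENCODE M21 of the same assembly by gene identifier; 884 mouse genes without a match held 0.124% of counts. Entries that are not mouse genes held 0.0009% of counts and stayed out of the scaling. A set of 7 scaffold copies of members was not analysed here, nor were 3 matching symbols that are not protein-coding.

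Counts were rounded and scaled with TMM factors (edgeR 4.0.16, R 4.3.3). Ratios are log2 of pup 2 over pup 1, where 3 stands in for a count of 0. Intervals are exact binomial (Clopper-Pearson) at 95% and cover counting error only. Ratios of TPM were lower, by 0.08 in the median (log2). With 1 library per pup there are no residual degrees of freedom, so no p-value was computed. The scaling and ratios were tested on simulated data. Alternatives were DESeq2 1.42.0 size factors, total counts, TPM ratios, posterior mean counts and 1 added to each count. Scaling without globin and mitochondrial genes, and other minimum counts and detection limits, were also tried. Promoters were read from RefSeq sequences of GRCm38.p6. The other steps ran in Python 3.11.15 (matplotlib 3.10.9, scipy 1.17.1, numpy 2.4.6, pandas 2.3.3).

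The members and lists were chosen with earlier results of these data known. Named in full were members detected in both pups or 2-fold apart and averaging 20 or more counts. Also named were the 3 highest genes of each pathway list, those 2-fold apart and averaging 100 or more counts, and for members at 10 TPM or more the leading transcripts and any other with at least 10 percent. Other members are given by counts, as a receptor or ligand of a named member or as low examples of a group. Some genes that this rule takes are not reported here or drawn in the plots, though counts and sums over the family include them.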

Additional observations from a re-analysis of the deposited data

How the results depend on the processing

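Under the 6 other scalings and count treatments, the number of members 2-fold higher in pup 2 was 7 in each, and the number 2-fold lower was 0. The count depended on the minimum mean count, with 14 at a minimum of 20, 12 at 50 and 6 at 200. Of the 14 members 2-fold higher at a minimum of 20, 13 were so under each of the 6 treatments. Cxcl5, at the line, was the exception. Of 84 gene values tried, 83 lay within the counting interval of the value reported, and the other was Ccl6 at 3.05 from the TPM ratio. The median log2 ratio ran from 0.61 to 0.70 under these 6 treatments. Over other minimum counts it ran from 0.48 with no minimum to 0.93 at a minimum of 50. Detected members numbered 12 at a limit of 5 TPM, 19 at 2 TPM and 29 at 0.5 TPM, against 22 at 1 TPM. Leaving out either pup gave 22 to 30 detected members, summed ligand levels of 345 to 824 TPM (mean of both 584) and summed receptor levels of 37.4 to 68.6 TPM (mean 53.0), so the sums rest on which pup is read. No paired analysis was possible because both samples belong to the same group. Genes with few counts in pup 1, such as Cxcr2, Cxcl2 and Cxcl3, have wide intervals. Depth limits any statement on the 29 members with a mean count under 20.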
